A study of Homo sapiens with 39 samples.

Results

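Messenger RNA of 10 genes, 7 chemokines (CCL3, CCL3L1, CCL3L3, CCL4, CCL5, CCL22 and CXCL10) and 3 chemokine receptors (CXCR4, CCR1 and CCR10), was read on Illumina BeadChip arrays of the human cell lines IM-9 and U266. The genes were taken by symbol and matched 11 of the 20589 probes, 1 for each gene and 2 for CXCR4, out of 16591 gene symbols on the array. IM-9 is an Epstein-Barr virus-transformed B-lymphoblastoid line, which the labels call sensitive to ch128.1Av. U266 is a multiple myeloma line, which they call tolerant. The agent is an antibody-avidin fusion protein directed at the transferrin receptor, and it was given at 10 nM. Each line was sampled without treatment at 0 h, and at 1, 3, 9 and 24 h of culture with buffer or with ch128.1Av, which made 18 groups. IM-9 gave 19 arrays and U266 gave 20, together 39, with 2 in each group apart from 3 groups of treated cells (3 h for IM-9, 1 h and 9 h for U266) that held 3. Nothing in the labels states that replicate arrays came from separate cultures, and the p-values therefore measure only the spread between these samples, which may be technical. The genes were chosen by their levels in the 2 lines and by their differences between treated cells and buffer in these same arrays, so those values are given here as a description without a test. Tests between hours use some of the same arrays, so their p-values are not free of that choice either.

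Chemokines are small secreted proteins that guide leukocytes along gradients by activating G protein-coupled receptors on the responding cell. CCL3, CCL4 and CCL5 are inflammatory chemokines, CCR1 is a receptor for CCL3 and CCL5, and CCL3 made by myeloma cells is known to stimulate osteoclasts. CCL3L1 and CCL3L3 are near-identical copies of CCL3 on chromosome 17, and CCL3L1 in particular varies in copy number between people. CCL22 draws cells that carry CCR4, and CXCL10 is the interferon-induced ligand of CXCR3. CXCR4 is the receptor for CXCL12 and holds plasma cells in the bone marrow, while CCR10 directs plasma cells to mucosal surfaces.

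The likeness of the CCL3 copies bears on every value below, because a short probe designed for one copy may bind the transcripts of the others. The deposited tables pair the 3 probes with RefSeq transcripts NM_002983 (CCL3), NM_021006 (CCL3L1) and NM_001001437 (CCL3L3), and the probe sequences were not used here. RefSeq promoter entries (GRCh38.p14) matched 6 of the 10 genes, among them CCL3 and CCL3L3. The 250 bases before the annotated starts of these 2 genes, chr17:36090144-36090393 and chr17:36196759-36197008, both on the minus strand, are shown because these genes moved together in IM-9. Read 5′ to 3′, capitals mark bases that differ between the copies or have no partner in their alignment.
CCL3: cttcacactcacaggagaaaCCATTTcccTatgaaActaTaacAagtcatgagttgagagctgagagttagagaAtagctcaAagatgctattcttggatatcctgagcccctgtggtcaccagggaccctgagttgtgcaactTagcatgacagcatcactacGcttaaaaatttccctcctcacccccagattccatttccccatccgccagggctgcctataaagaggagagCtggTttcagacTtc
CCL3L3: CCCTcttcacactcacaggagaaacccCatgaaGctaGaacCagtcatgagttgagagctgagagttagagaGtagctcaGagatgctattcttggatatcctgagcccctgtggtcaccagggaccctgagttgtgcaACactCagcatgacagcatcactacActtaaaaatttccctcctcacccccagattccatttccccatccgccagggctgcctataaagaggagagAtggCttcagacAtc
Of 256 aligned columns, 233 were identical (91%), 11 were mismatched and 12 lay in gaps. Motifs were searched in windows of 300 bases, the 250 shown and the 50 after the start. The windows of both copies held the TATAAA motif, which 11.5% of the 35116 promoters of the same length hold on either strand. CXCL10 had another kind of upstream sequence. Its 250 bases, chr4:76023498-76023747 on the minus strand, are shown because CXCL10 was the interferon-regulated member measured in IM-9.
CXCL10: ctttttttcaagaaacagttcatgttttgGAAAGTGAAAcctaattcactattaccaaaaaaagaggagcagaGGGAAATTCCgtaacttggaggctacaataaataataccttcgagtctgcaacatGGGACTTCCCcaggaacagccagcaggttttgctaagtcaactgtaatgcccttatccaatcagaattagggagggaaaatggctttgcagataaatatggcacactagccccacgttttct
Here capitals mark 1 match to GAAANNGAAA, the core of the interferon-stimulated response element, and 2 matches to the kappa B consensus. GAAANNGAAA is present on either strand in 3.57% of promoters, and the kappa B consensus in 11.3%. The CCL22 window also held 2 kappa B consensus matches, and the CCL3, CCL3L3, CXCR4 and CCR1 windows held none. A match describes these letters only.

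The arrays differed in brightness, and the values are read with that in view. The spread of raw intensity on an array, its percentile 75 over its percentile 5, ran from 3.95 to 11.7, the median raw intensity from 137.9 to 223.3, and between 8967 and 10067 probes were detected on an array. Detection means a detection p under 0.01. Levels are log2 intensities after background correction and quantile normalization, and a probe was tested if it was detected on at least 2 arrays, which kept 12080 probes and 10 of the 11 member probes. In 7 U266 arrays the brightest probe exceeded a raw intensity of 60000, among them all 3 ch128.1Av arrays at 1 h and neither buffer array of that hour. In the B-lineage list, 5 of 7 markers on the array (CD22, CD74, CD79A, CD79B and FCER2) were detected on every IM-9 array and PAX5 on none, while 2 of 7 (CD74 and CD79B) were detected on every U266 array. Of 8 plasma cell markers, 7 were detected on every U266 array, SDC1 being the exception, and 5 (IRF4, MZB1, PRDM1, TNFRSF17 and XBP1) on every IM-9 array. Of 5 T-cell markers, 0 was detected on any IM-9 array and 1 on some U266 array. Of 8 myeloid markers, 2 were detected on some IM-9 array and 0 on any U266 array. Of 4 NK-cell markers, 3 were detected on some IM-9 array, NKG7 on all, and 1, NCAM1, on every U266 array.

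The CCL3 trio was far higher in U266 than in IM-9. CCL3 read 10.29 and 10.46 in the 2 IM-9 arrays at 0 h against 15.31 and 15.49 in U266, a 32.6-fold higher level in U266 (log2 difference, IM-9 minus U266, −5.03, SE 0.103). CCL3L1 read 8.49 and 8.62 against 14.26 and 14.14, 50.1-fold higher in U266. CCL3L3 read 10.16 and 10.39 against 14.76 and 15.21, 26.2-fold higher in U266. None of the 3 overlapped between lines on any of the 39 arrays, as the plot of levels by line shows. The share of all probes that separate the lines in this way was not counted, nor was it for groups set apart below. Limma called 66.6% of all probes between lines at 0 h. CCL3 was among the brightest signals of U266, at ranks 7 to 41 of the 20589 probes, with raw intensities of 26858 to 56968. CCL3L3 ranked 22 to 80 and CCL3L1 150 to 457. Quantile normalization pulls the top of the range to shared values, so small changes of CCL3 and CCL3L3 in U266 could not be read well.

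CCL4, an inflammatory chemokine whose gene lies near that of CCL3 on chromosome 17, was detected on 0 of 39 arrays and was not tested. Its raw intensity ran from 89.9 to 181.1 over both lines, and the detection score of its probe reached 0.921 at most. Whether this probe detects the transcript at all was not tested.

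**Figure D1:**
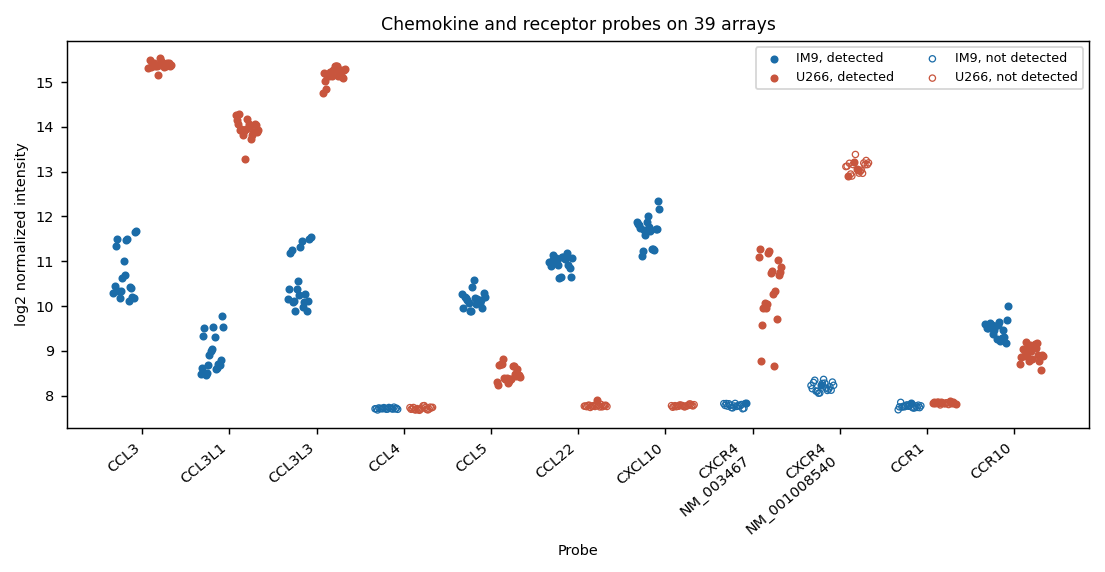
Levels of the 11 chemokine and receptor probes (log2 normalized intensity) on each of the 39 arrays, with IM-9 in blue, U266 in red and open circles for arrays on which the detection score did not pass. CCL3, CCL3L1 and CCL3L3 lie higher in U266, CCL22 and CXCL10 are detected on all 19 IM-9 arrays, and levels of different probes are not comparable with each other.

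The remaining ligands were higher in IM-9. CCL5 read 10.28 and 9.97 in IM-9 at 0 h and 8.30 and 8.24 in U266, 3.60-fold higher in IM-9. CCL22 read 10.97 and 10.89 in IM-9 and was detected on 1 of 20 U266 arrays, so its level was at least 8.92-fold higher in IM-9 at 0 h. CXCL10 read 11.88 and 11.84 in IM-9, was detected on 0 of 20 U266 arrays, and was at least 16.9-fold higher in IM-9. Such bounds replace a dim level by the detection floor of its arrays, the lowest level of any detected probe, where that floor is higher.

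Receptors ran both ways. The CXCR4 probe named for NM_003467 read 11.08 and 11.28 in U266 at 0 h and was not detected in IM-9 there, at least 10.4-fold higher in U266. The CXCR4 probe named for NM_001008540 read 13.11 and 13.12 in U266 and 8.23 and 8.16 in IM-9. It was detected on 5 of 39 arrays by its score although its raw intensity in U266 reached 5443 to 14084, so score and brightness conflict and no fold is given. Such a conflict, a missed detection in spite of a brightness rank within the top 5000 of the array, occurred for 197 probes. CCR10 read 9.61 and 9.50 in IM-9 and 8.71 and 8.86 in U266, 1.70-fold higher in IM-9. CCR1, a receptor of CCL3 and CCL5, stayed near the detection floor, between 7.69 and 7.89 on all arrays, and was detected on 1 IM-9 and 11 U266 arrays.

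In buffer alone, the CCL3 trio of IM-9 rose at 1 h and was low again at 3 h. The 1, 3 and 9 h comparisons with 0 h were added after the values had been seen. CCL3 went from 10.29 and 10.46 at 0 h to 11.34 and 11.49 at 1 h, then to 10.33 and 10.19 at 3 h. The rise at 1 h was 2.06-fold (log2 difference 1.04, SE 0.103, limma adjusted p = 6.98e-07). CCL3L1 went from 8.49 and 8.62 to 9.33 and 9.51, a rise of 0.87 (limma adjusted p = 3.54e-04), and read 8.46 and 8.51 at 3 h. CCL3L3 went from 10.16 and 10.39 to 11.19 and 11.25, a rise of 0.94 (limma adjusted p = 1.81e-04), and read 10.08 and 10.12 at 3 h. Arrays at 0 and 1 h did not overlap for any of the 3, which carries little weight with 2 arrays in a group. At 3 h the differences from 0 h were −0.12, −0.07 and −0.18, none of them called. The trio made up the 3 member probes called at 1 h, of 10 tested, beside 2.28% of all probes. Of all probes, 129 were higher and 146 lower, or 12 higher and 3 lower with equal medians. The CCL3L1 call was lost when arrays were scaled to equal medians (0.86, limma adjusted p = 0.509), while the CCL3 and CCL3L3 calls held in all 12 alternative settings and without any 1 array.

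The arrays with ch128.1Av, which share none with the buffer groups, had a like course between 1 and 3 h. CCL3 read 11.48 and 11.49 at 1 h of treatment and 10.12, 10.42 and 10.41 at 3 h, a fall of 1.17 (log2 difference −1.17, SE 0.0939, limma adjusted p = 7.73e-09). CCL3L1 read 9.54 and 9.30 and then 8.59, 8.62 and 8.71, a log2 difference of −0.78 (limma adjusted p = 1.59e-04). CCL3L3 read 11.32 and 11.45 and then 9.97, 10.08 and 10.27, a log2 difference of −1.28 (limma adjusted p = 1.98e-07). With CXCL10, 4 of 10 member probes were called between these hours, all lower, beside 6.23% of all probes. This comparison was also added after the values had been seen, and its 4 calls held in all 12 alternative settings.

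CXCL10 fell later than the trio rose. In IM-9 buffer arrays it read 11.88 and 11.84 at 0 h, 11.80 and 11.74 at 1 h, 11.12 and 11.22 at 3 h, 11.70 and 11.58 at 9 h and 11.87 and 12.01 at 24 h. The 3 h arrays lay below all others. The fall at 3 h was −0.68 on the log2 scale (SE 0.0478, limma adjusted p = 3.37e-09), the single member call at that hour of 10 tested, beside 5.75% of all probes. At 9 h it was still −0.22 (limma adjusted p = 0.0102), again the single call of 10, beside 3.84% of all probes. The 9 h call was lost in 5 of 12 settings, and without buffer replicate 1 at 0 h (−0.20) or replicate 2 at 9 h (−0.16). With ch128.1Av, CXCL10 read 11.77 and 11.68 at 1 h and 11.27, 11.28 and 11.25 at 3 h, a log2 difference of −0.45 (limma adjusted p = 1.57e-07).

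**Figure D2:**
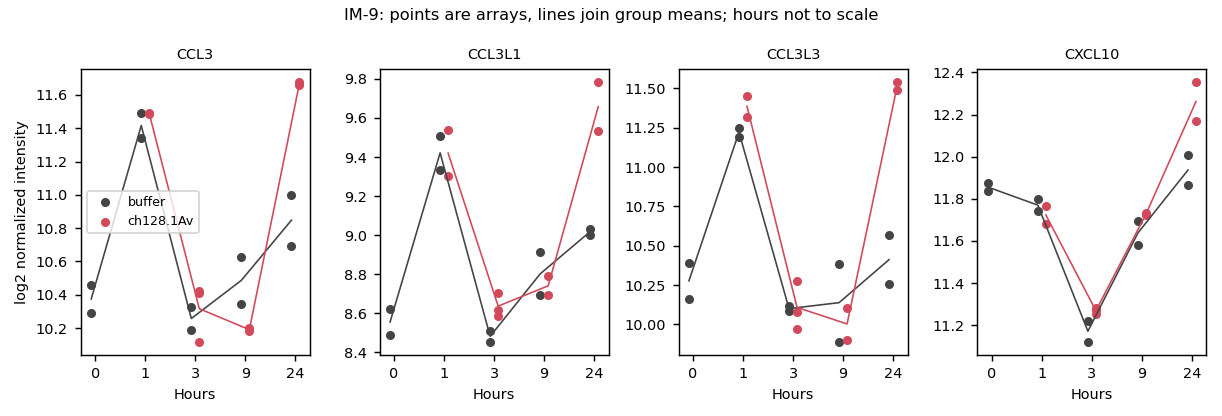
Levels of CCL3, CCL3L1, CCL3L3 and CXCL10 in IM-9 (log2 normalized intensity) by hour, each point an array and each line joining group means, with buffer in grey and ch128.1Av in red. The trio is high at 1 h in both arms and again at 24 h with ch128.1Av, and CXCL10 is lowest at 3 h.

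At 24 h of buffer, 4 of 10 member probes differed from 0 h in IM-9, 3 higher and 1 lower, beside 15.7% of all probes. CCL3 read 11.00 and 10.69 (log2 difference 0.47, SE 0.103, limma adjusted p = 0.00252). CCL3L1 read 9.00 and 9.03 (0.46, limma adjusted p = 0.0185). CCL5 read 10.42 and 10.58 (0.38, limma adjusted p = 9.61e-04). CCL22 read 10.63 and 10.66, a log2 difference of −0.29 (limma adjusted p = 0.0112). CCL3L3, at 10.57 and 10.26, overlapped its 0 h arrays. The CCL5 call alone held without any 1 array. Without buffer replicate 1 at 24 h, 3 calls were lost, CCL3 at 0.32, CCL3L1 at 0.48 and CCL22 at −0.27. Without buffer replicate 1 at 0 h, CCL3L1 stood at 0.40 and CCL22 at −0.25, neither called, and the CCL3L1 call was also lost without replicate 2 at 24 h (0.45). The CCL22 call was lost in 5 of 12 settings, and that of CCL3L1 with array brightness as a covariate (0.33). With arrays scaled to equal medians, all probes together had a median shift of 0.125, and the split of all probes called moved from 1048 higher and 848 lower to 1115 higher and 34 lower. On that scale CCL3 stood at 0.85, CCL3L1 at 0.83 and CCL5 at 0.78, all still called, and CCL22 turned to 0.09.

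U266 did not share the 1 h rise of the trio. CCL3 read 15.34 and 15.39 at 1 h of buffer against 15.31 and 15.49 at 0 h, and CCL3L3 read 15.01 and 14.83 against 14.76 and 15.21. The change from 0 to 1 h was larger in IM-9 than in U266 by 1.08 for CCL3 (limma adjusted p = 2.04e-04), 0.90 for CCL3L1 (limma adjusted p = 0.0186) and 1.01 for CCL3L3 (limma adjusted p = 0.00929). With the NM_003467 probe of CXCR4 (2.00, limma adjusted p = 0.0492), which was below detection on the IM-9 side, 4 of 10 member probes differed between lines in this change, beside 1.16% of all probes. The CXCR4 call was lost without any of 7 of its 8 single arrays, with values of 1.59 to 2.10, and in 6 of 10 settings. The bright end of the U266 arrays compresses CCL3 and CCL3L3, and its part in this difference was not tested. With equal medians the CCL3 difference was 1.31 (limma adjusted p = 0.0628) and that of CCL3L1 1.01 (limma adjusted p = 0.838). The CCL3L3 call was lost without IM-9 buffer replicate 1 at 0 h (0.89) or U266 buffer replicate 2 at 0 h (0.78). That of CCL3L1 was lost without any of 5 single arrays, both U266 arrays at 0 h, IM-9 replicate 1 at 0 h, IM-9 replicate 2 at 1 h and U266 replicate 1 at 1 h, with values of 0.78 to 0.96.

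CCL5 and one CXCR4 probe moved in U266 instead. CCL5 read 8.30 and 8.24 at 0 h, 8.69 and 8.70 at 1 h, and 8.72 and 8.81 at 3 h, then 8.40 and 8.38 at 9 h and 8.39 and 8.29 at 24 h. It rose by 0.42 at 1 h (SE 0.0740, limma adjusted p = 0.00110) and by 0.49 at 3 h (limma adjusted p = 1.81e-04), and the 1 and 3 h arrays lay above all other buffer arrays. With equal medians both calls were lost, at 0.28 (limma adjusted p = 0.683) and 0.53 (limma adjusted p = 0.614). The NM_003467 probe of CXCR4 read 11.08 and 11.28 at 0 h, 8.78 and 9.58 at 1 h, 9.96 and 10.06 at 3 h, 9.96 and 10.05 at 9 h and 11.18 and 11.23 at 24 h. It was 4.01-fold lower at 1 h (log2 difference −2.0, SE 0.353, limma adjusted p = 0.00114) and 2.26-fold lower at 3 h (log2 difference −1.18, limma adjusted p = 0.0424), and its 24 h arrays lay within the range of the 0 h arrays. The 3 h call was lost without any 1 of its 4 arrays, with values of −1.28 to −1.08. The buffer arrays at 1 h also enter the comparison with ch128.1Av at that hour, which the rule used. The 1 h p-values of CCL5 and of this CXCR4 probe are therefore not free of that choice. The NM_001008540 probe of CXCR4 stayed between 12.90 and 13.38 on all U266 arrays, so the 2 probes of this gene disagreed. They are named for different transcripts of CXCR4. Member calls in U266 buffer were thus 2 of 10 at 1 h beside 11% of all probes (704 higher and 622 lower, or 10 and 45 with equal medians), and 2 of 10 at 3 h beside 7.29%. At 9 h limma called 0 of 10, beside 3.27% of all probes, with 2 at an unadjusted p under 0.05.

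Between lines, the CCL5 change from 0 to 3 h was smaller in IM-9 by 0.51 (log2 difference −0.51, limma adjusted p = 0.00866), and that of CXCL10 by 0.68 (log2 difference −0.68, limma adjusted p = 1.00e-06), 2 of 10 member probes beside 1.63% of all probes. With equal medians neither was called, at −0.53 for CCL5 and −0.68 for CXCL10 (limma adjusted p = 0.735). The CXCL10 difference has U266 arrays that were all below detection on one side. The CCL5 difference was not called without IM-9 buffer replicate 1 at 0 h (−0.35), IM-9 replicate 2 at 3 h (−0.47) or U266 replicate 2 at 3 h (−0.46). From 0 to 9 h limma called 0 of 10 line differences, with 4 at an unadjusted p under 0.05, beside 0.869% of all probes.

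At 24 h of buffer, CCL3L1 was the single member called in U266, of 10, beside 12.1% of all probes, 650 higher and 816 lower, or 4 higher and 2 lower with equal medians. It read 14.26 and 14.14 at 0 h and 13.29 and 13.94 at 24 h, a log2 difference of −0.59 (SE 0.133, limma adjusted p = 0.00699). Without buffer replicate 1 at 24 h, the array at 13.29, the difference was −0.26 (limma adjusted p = 0.276), and without replicate 1 at 0 h it was −0.53 (limma adjusted p = 0.101). The call was also lost with equal medians (−0.62) and with array brightness as a covariate (−0.46). The change from 0 to 24 h was larger in IM-9 than in U266 for CCL3 by 0.60 (limma adjusted p = 0.00552), for CCL3L1 by 1.05 (limma adjusted p = 5.31e-04) and for CCL5 by 0.31 (limma adjusted p = 0.0357), 3 of 10 member probes beside 22% of all probes. With equal medians the CCL3 difference was 0.48 (limma adjusted p = 0.196). CCL3 in U266 also lies at the bright end of its arrays, where small changes could not be read well. The CCL5 difference was lost in 6 of 11 settings and without any of 4 single arrays, IM-9 buffer replicate 2 at 0 h (0.16) or at 24 h (0.24), U266 replicate 1 at 0 h (0.28) and U266 replicate 2 at 24 h (0.26).

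**Figure D3:**
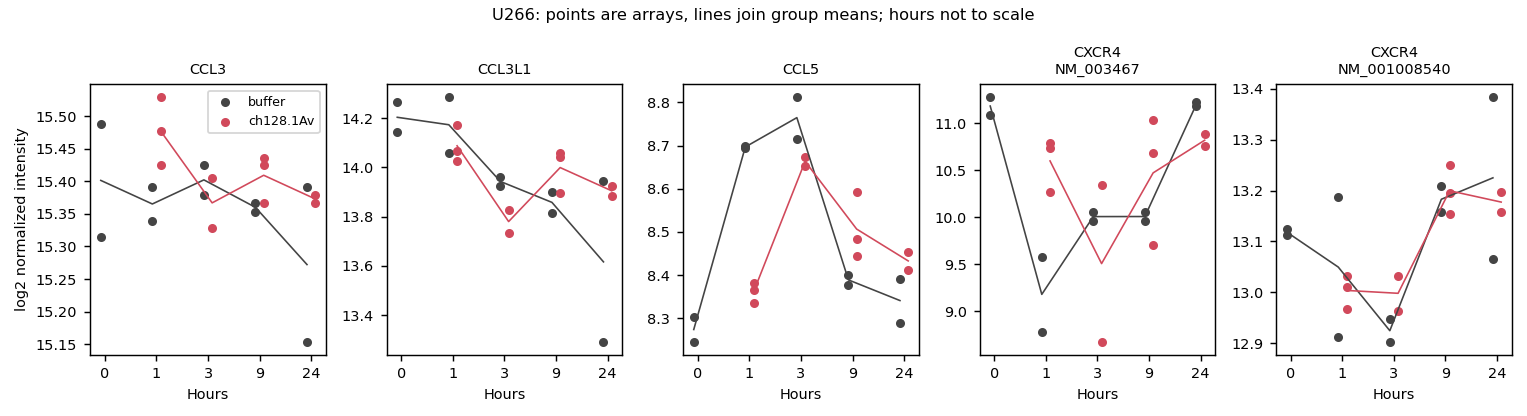
Levels of CCL3, CCL3L1, CCL5 and both CXCR4 probes in U266 (log2 normalized intensity, a scale of its own in each panel) by hour, each point an array and each line joining group means, with buffer in grey and ch128.1Av in red. CCL5 is high at 1 and 3 h of buffer, the NM_003467 probe of CXCR4 drops at 1 h, and the NM_001008540 probe stays between 12.90 and 13.38.

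Treated arrays were set against buffer arrays of the same hour as a description, since these differences were known when the members were chosen. In IM-9 at 1, 3 and 9 h, log2 differences of members from buffer ran from −0.30 (CCL3 at 9 h) to 0.16 (CCL3L3 at 1 h). Limma called 0 of 10 member probes at each of these hours, with 0, 2 and 2 at an unadjusted p under 0.05, beside 0% of all probes at 1 h, 0.0166% at 3 h and 0.0993% at 9 h. At 24 h, 6 of 10 were called, 5 higher and 1 lower, beside 13% of all probes. The median log2 difference of the 10 was 0.28, against −0.0014 over all probes tested. Because the rule used this contrast, nothing is read from the counts.

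Among the member probes, those of the CCL3 trio differed most from buffer at 24 h in IM-9 with quantile normalization. CCL3 read 11.66 and 11.68 with ch128.1Av and 11.00 and 10.69 with buffer, 1.77-fold higher (log2 difference 0.82, SE 0.103). CCL3L1 read 9.78 and 9.53 against 9.00 and 9.03, a log2 difference of 0.64 (SE 0.133). CCL3L3 read 11.49 and 11.54 against 10.57 and 10.26, 2.15-fold higher (log2 difference 1.10, SE 0.136). In each of the 3 the treated arrays lay above the buffer arrays, and the share of all probes so separated was not counted.

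The other ligands and the receptors differed less. CXCL10 read 12.35 and 12.17 against 11.87 and 12.01, a log2 difference of 0.33 (SE 0.0478). CCR10 read 9.70 and 10.00 against 9.56 and 9.27, a difference of 0.43 (SE 0.121). CCL5 read 10.30 and 10.20 against 10.42 and 10.58, a log2 difference of −0.26 (SE 0.0740). CCL22 read 10.66 and 11.08 against 10.63 and 10.66, a difference of 0.23 (SE 0.0769) that was not called. CCR1 and both CXCR4 probes overlapped between the arms, within 0.04 of each other in mean log2 level. The CCL5 call was lost without buffer replicate 2 (−0.18) or ch128.1Av replicate 2 (−0.21), and the CCR10 call without the same arrays (0.29 and 0.28). Over the alternative settings the CCL5 call was lost in 5 of 12, and that of CCR10 in 2, with 0.22 when array brightness was a covariate.

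These differences depended on how the arrays were scaled. The raw intensity of CCL3 was not higher on the treated arrays, at 2685.8 and 2030.1 against 3085.6 and 2578.5 with buffer, and the treated arrays were dimmer, with brightness ratios of 6.71 and 3.97 against 9.24 and 9.29. With arrays scaled to equal medians, all probes together had a median shift of −0.138. CCL3L3 was then still called at 0.68, CCL3 stood at 0.41 and CCL3L1 at 0.27, and CXCL10 and CCR10 lay at −0.0075 and −0.0034. CCL5 stood at −0.70 on that scale. The split of all probes moved from 729 higher and 847 lower to 67 higher and 712 lower. The log2 of the summed levels of the T-cell, NK-cell and myeloid markers was 12.09 on both treated arrays, and 12.10 and 12.11 with buffer. Most of these markers were below detection in IM-9, so the sum rests largely on the floor and says little about cell content. Fewer cells of a type and less RNA per cell cannot be told apart in such bulk samples.

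**Figure D4:**
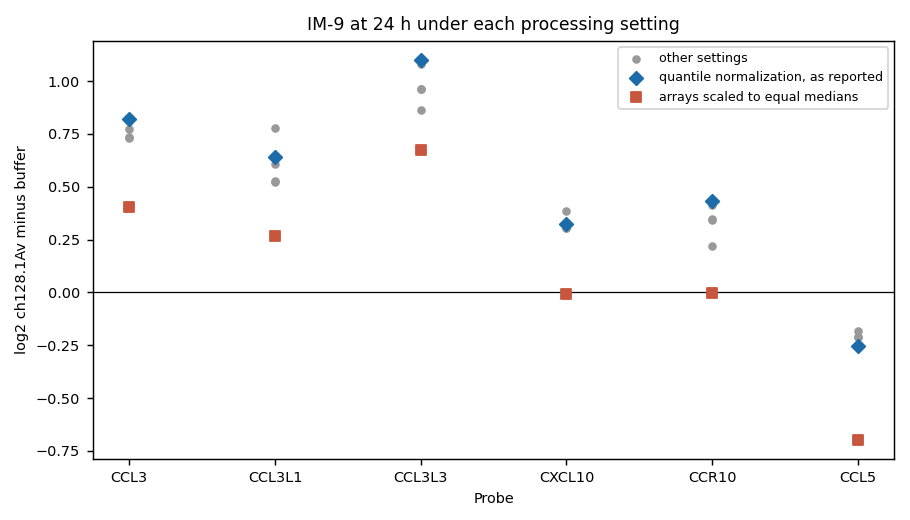
Log2 difference of ch128.1Av minus buffer at 24 h in IM-9 for 6 probes under each processing setting, with the reported value as a blue diamond, equal array medians as a red square and the other settings in grey. CCL3L3 ranges from 0.68 to 1.10 and CCL5 lies below 0 throughout, while CXCL10 and CCR10 reach 0 with equal medians.

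In U266 at 1 h, limma called 3 of 10 member probes between ch128.1Av and buffer, beside 9.02% of all probes. The rule used this contrast too, so nothing is read from the count and the values are a description. The NM_003467 probe of CXCR4 read 10.74, 10.79 and 10.27 against 8.78 and 9.58 with buffer, 2.67-fold higher (log2 difference 1.42, SE 0.322). CCL5 read 8.34, 8.37 and 8.38 against 8.69 and 8.70, a log2 difference of −0.34 (SE 0.0676). CCL3L3 ranked 22 on each of the 3 treated arrays, which quantile normalization sets to a shared value of 15.35, against 15.01 and 14.83, a log2 difference of 0.43 (SE 0.125). Treated and buffer arrays did not overlap for these probes. For CXCR4 and CCL5 the buffer arrays are those that also gave the change from 0 to 1 h in buffer. The 3 treated arrays were those with a brightest probe above 60000, so treatment and that set of arrays cannot be told apart at this hour. With array brightness as a covariate the differences were 1.31 for CXCR4, −0.25 for CCL5 and 0.16 for CCL3L3, and with that set as a block 1.36, −0.32 and 0.30. None of these was called, although the CXCR4 difference stayed about as large. With equal medians CXCR4 stood at 1.25 and CCL5 at −0.36, neither called, and CCL3L3 at 0.90. The split of all probes called moved from 558 higher and 532 lower to 58 higher and 4 lower on that scale. The CXCR4 call was also lost without buffer replicate 1 (1.02), and the CCL3L3 call without any 1 of its 5 arrays, with values of 0.34 to 0.52.

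At 3, 9 and 24 h in U266, log2 differences of members from buffer ran from −0.50 to 0.46 for the NM_003467 probe of CXCR4 and from −0.16 to 0.29 for the other 9. Limma called 0 of 10 at 3, 9 and 24 h, with 0, 0 and 1 at an unadjusted p under 0.05, beside 0.00828%, 0.0414% and 0.0166% of all probes. CXCR4 (NM_003467) read 8.67 and 10.35 at 3 h of ch128.1Av, and 9.71, 11.03 and 10.68 at 9 h. From 1 to 3 h of treatment CCL5 went from 8.34, 8.37 and 8.38 to 8.65 and 8.67, a rise of 0.30 (limma adjusted p = 0.00707), and the CXCR4 probe changed by −1.09 (limma adjusted p = 0.0381), 2 of 10 member probes beside 8.21% of all probes. Without ch128.1Av replicate 1 at 3 h, the CXCR4 change was −0.26 and the CCL5 change 0.31, neither called. Neither change was called with equal medians or with array brightness as a covariate, and the CXCR4 call was also lost without ch128.1Av replicate 1 (−1.02) or replicate 2 (−1.0) at 1 h.

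The effect of ch128.1Av at 24 h was larger in IM-9 than in U266, again as a description, for CCL3 by 0.72 (SE 0.146), for CCL3L3 by 1.03 (SE 0.193), for CXCL10 by 0.32 (SE 0.0676) and for CCR10 by 0.59 (SE 0.170). These were the 4 of 10 member probes called, beside 4.69% of all probes, and nothing is read from that count. In U266 the treated arrays at 24 h read 15.37 and 15.38 for CCL3 against 15.15 and 15.39 with buffer. Without IM-9 buffer replicate 2 the CCL3 difference was 0.57 and not called. That of CCR10 was called in 5 of 11 alternative settings, and was lost without any of 5 single arrays, IM-9 buffer replicate 2 (0.45), IM-9 ch128.1Av replicate 2 (0.44), U266 buffer replicate 1 (0.53) and U266 ch128.1Av replicates 1 (0.61) and 2 (0.58). With equal medians 0 of the 4 was called, with values of 0.44, 0.69, −0.01 and 0.25 in that order. At 1, 3 and 9 h limma called 0 of 10 in this difference, with 2, 0 and 1 at an unadjusted p under 0.05, beside 0.0828%, 0% and 0.0166% of all probes.

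**Figure D5:**
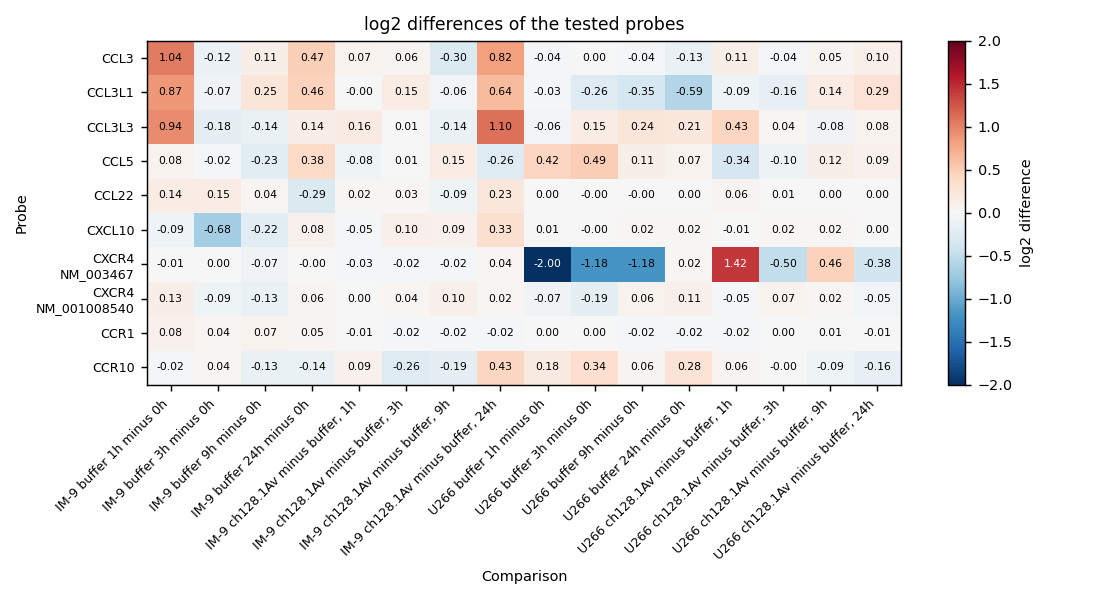
Log2 differences of the 10 tested probes (vertical axis) in 16 comparisons (horizontal axis), with red for higher and blue for lower. The CCL3 trio stands out at 1 h of buffer and at 24 h of ch128.1Av in IM-9, and CXCR4 (NM_003467 probe) in U266.

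The 3 probes of the CCL3 copies ran in parallel in IM-9. Over the 9 IM-9 group means, Pearson's r was 0.975 for CCL3 with CCL3L1, 0.984 for CCL3 with CCL3L3 and 0.947 for CCL3L1 with CCL3L3. In the 9 U266 groups the same pairs had 0.694, 0.188 and −0.487, over a range of single arrays of 0.38 for CCL3, 1.00 for CCL3L1 and 0.59 for CCL3L3. Points of one line share arrays and normalization, and cross-matching probes would share signal, so the 3 are not independent measurements. How much each probe takes from each copy was not tested. Outside the trio, the member pair farthest from 0 in U266 was CCL5 with the NM_003467 probe of CXCR4, at −0.812 over 9 groups.

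Among genes that are no members, the patterns most like CCL3 over the 18 group means, after subtraction of each line's mean, were those of PRKCB (r = 0.909), CD22 (0.904) and TNFRSF10D (0.884). CCL3L1 lay nearest to DUSP16 (0.883), CD22 (0.845) and PRKCB (0.845), and CCL3L3 to BTNL9 (0.931), TNFRSF10D (0.906) and ADAM23 (0.902). CCL22 lay nearest to PLEKHO1 (0.938), SLC43A3 (0.935) and TMEM201 (0.921). CCL5 lay nearest to FAM171A1 (0.863), SREBF2 (0.837) and ATP5F1E (0.829), and CCR10 to CAMK1D (0.909), COQ8A (0.859) and ELP2 (0.855). The NM_003467 probe of CXCR4 lay nearest to CLEC2D (0.949), MCL1 (0.948) and RBMY1J (0.945). These are the highest of many correlations and are given as a description.

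The rest of the family held 68 listed symbols, 54 of them on the array and 16 tested. CXCL8, the neutrophil chemokine, also rose at 1 h in IM-9. It read 8.88 and 9.00 at 0 h of buffer, 9.86 and 10.02 at 1 h, 8.48 and 8.40 at 3 h and 8.26 and 8.24 at 24 h. The rise at 1 h was 1.01 (SE 0.0570, limma adjusted p = 2.70e-11), the single call of 16 at that hour, beside 2.28% of all probes. With ch128.1Av, CXCL8 read 10.16 and 9.99 at 1 h and 8.41, 8.53 and 8.62 at 3 h, a log2 difference of −1.56 (limma adjusted p = 3.34e-16). Both calls held in all 12 alternative settings and without any 1 array.

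At 3 h of buffer 3 of the 16 were lower in IM-9, beside 5.75% of all probes called, CXCL8 by −0.50 (limma adjusted p = 4.01e-06), the scavenging receptor ACKR3 by −0.43 (limma adjusted p = 9.75e-04) and CCL20, the ligand of CCR6, by −0.28 (limma adjusted p = 0.0139). At 9 h the 3 lower, beside 3.84% of all probes called, were CXCL8 (−0.42), CCR7 (−0.27) and CXCR3 (−0.25), the receptor of CXCL10. With equal medians none of these 6 calls at 3 and 9 h was kept, with limma adjusted p from 0.247 to 0.974. The 3 h differences were then −0.48, −0.44 and −0.29 and the 9 h differences −0.28, −0.20 and −0.14, in the order given. At 24 h, 4 of the 16 were higher and 3 lower, beside 15.7% of all probes called, with a median log2 difference of 0.015 against 0.0014 over all probes. ACKR3 was higher by 0.77 (limma adjusted p = 2.50e-07), CCL20 by 0.25, PPBP by 0.19 and CXCL16 by 0.12. CXCL8 was lower, with a log2 difference of −0.69 (limma adjusted p = 1.26e-08), as were CXCR3 (−0.40, limma adjusted p = 1.95e-05) and CCR7 (−0.11). With equal medians CCR7 turned to 0.13 and CXCR3 stood at −0.19 (limma adjusted p = 0.275), neither called, while CCL20 stood at 0.56, ACKR3 at 1.17 and CXCL8 at −0.50. Without 1 array at a time the 24 h calls of CCL20 and CCR7 were lost, with CCL20 at 0.19 without replicate 2 at 0 h and at 0.15 without replicate 2 at 24 h. CCR7 had −0.08 and −0.11 without the same 2 arrays, and −0.11 without replicate 1 at 24 h. The CCL20 call at 3 h was lost without replicate 1 at 0 h (−0.22) or at 3 h (−0.24), and that of CXCR3 at 9 h without replicate 1 at 0 h (−0.18) or at 9 h (−0.25).

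In U266 buffer, limma called 0 of the 16 at every hour, with 2, 0, 2 and 1 at an unadjusted p under 0.05 at 1, 3, 9 and 24 h, beside 11%, 7.29%, 3.27% and 12.1% of all probes. Between lines at 0 h, given as a description, CCR7, which guides lymphocytes to lymph nodes, was at least 30.9-fold higher in IM-9, CXCL8 at least 2.24-fold and ACKR3 at least 2.00-fold. CCR2 was at least 7.48-fold higher in U266.

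Genes of NF-kB, the transcription factor family that drives many chemokine genes, were counted at the same hours. Limma called 0 of 11 genes at 1 h of buffer in IM-9, beside 2.28% of all probes, with 2 at an unadjusted p under 0.05 and a median log2 difference of 0.078 against 0.00024 over all probes, and 0 of 11 at 3, 9 and 24 h, with 0, 1 and 1, beside 5.75%, 3.84% and 15.7% of all probes. In U266 at 1 h, 3 of the 11 were higher and 2 lower, at 3 h 2 were higher, and at 24 h 3 were higher, beside 11%, 7.29% and 12.1% of all probes called. Of these, IRF1, an interferon-regulated transcription factor, RELB, an NF-kB subunit, and TNFAIP3 and RELA were named after their values were seen. IRF1 fell by 1.05 at 1 h in U266 (log2 difference −1.05, limma adjusted p = 5.56e-05) and RELB rose by 0.98 (limma adjusted p = 0.00160). RELB was not called without buffer replicate 1 at 1 h (0.74) or with equal medians (0.79). TNFAIP3 was lower at that hour (log2 difference −0.57, limma adjusted p = 0.00674) and RELA higher (0.60, limma adjusted p = 0.0101). Both were less steady, each called in 10 of 12 settings and lost without some single arrays. Among regulators of receptor signalling, 0 of 12 probes of 11 genes was called at 1 h in IM-9, beside 2.28% of all probes, with 1 at an unadjusted p under 0.05. At 24 h RGS16, which shortens G protein signalling, was the single call, with a log2 difference of −0.32 (limma adjusted p = 1.43e-05) that became −0.14 (limma adjusted p = 0.581) with equal medians. In U266 at 24 h, 3 of these 12 probes were higher and 1 was lower, beside 12.1% of all probes called.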

How the data were processed

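Total RNA of 39 cell-line samples was amplified with biotin label and hybridised to Illumina BeadChip arrays, per the labels' protocols, and BeadStudio is named in the submitters' processing notes. The deposited scanner table gives each probe's mean intensity as scanned, per the file headers, on a linear scale and with no normalization that the values show. It also holds a detection score, a fraction between 0 and 1, from which the detection p-value was taken as 1 minus the score, and a bead number, another deposited column, of 26 to 71 per member probe (median 42). For 1 array the deposited bead column repeats the detection score, so bead numbers cover 38 arrays. The deposited value table is on the log2 scale and shares one distribution across arrays, so the authors quantile-normalized it, judged from the values. A further 39 per-sample columns were not used.

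Gene symbols came from the platform table, with 1 symbol for 18332 probes. The other 2257 had no symbol or several, which were not told apart. Intensities were corrected with neqc of limma 3.58.1 (R 4.3.3; offset 16) and quantile-normalized, and 12080 probes were kept and 8509 removed. One model with 18 group means (21 residual degrees of freedom, 27 contrasts) was fitted with lmFit and eBayes. Tests were two-sided, adjusted by Benjamini-Hochberg over all kept probes, and called at an adjusted p under 0.05. Promoters were aligned with Biopython 1.88.

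The members and lists were chosen with earlier results of these data known, so line levels and treated-against-buffer differences carry no p. The rule names all member probes, family genes called in buffer or differing by a log2 of at least 1 between lines or arms, and the 3 nearest patterns. Of the NF-kB genes and regulators it names up to 4 by the smallest p in IM-9 at 24 h of buffer, of which 1 is given, since the others were not called. The labels do not say whether replicate numbers pair samples, and the main fit assumed no pairing. Of 16 same-number pairs of arrays, 3 had deviations from their group means correlated above 0.1 (range −0.696 to 0.295). Where both groups held 2 arrays, the values of replicates 1 and 2 are equal by construction. The 16 values are therefore not independent and cannot decide whether samples were paired. The number of arrays limits the precision. Alternatives covered scaling, background, offset, detection filter, probes per gene, array brightness, the bright array set, replicate block, spread, lines fitted apart, the authors' table and leaving out each array. The fit was also run on simulated data with independent noise for each probe and array. Such data leave out differences in brightness between arrays of a group, so nothing is read from that run.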

Additional observations from a re-analysis of the deposited data

Results flagged for a closer look

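Several members moved differently in the 2 lines, by the limma test of the difference itself or, for ch128.1Av, as a description. In buffer, the change from 0 to 1 h was larger in IM-9 by 1.08 for CCL3, 0.90 for CCL3L1, 1.01 for CCL3L3 and 2.00 for the NM_003467 probe of CXCR4, where the U266 arrays fell and the IM-9 arrays were below detection. The CXCR4 difference was called in 4 of 10 alternative settings. Limma called 1.16% of all probes in this change, and with equal medians only the CCL3L3 call was kept. From 0 to 3 h, CCL5 (−0.51) and CXCL10 (−0.68) changed less or fell more in IM-9, beside 1.63% of all probes called. Neither was called with equal medians. From 0 to 24 h the differences were 0.60 for CCL3, 1.05 for CCL3L1 and 0.31 for CCL5, 3 of 10 member probes beside 22% of all probes. With equal medians the CCL3 and CCL5 calls were lost, and that of CCL5 was kept in 5 of 11 settings. The effect of ch128.1Av at 24 h differed by 0.72 for CCL3, 1.03 for CCL3L3, 0.32 for CXCL10 and 0.59 for CCR10, beside 4.69% of all probes called. With equal medians none of these was called, and that of CCR10 was called in 5 of 11 settings. CXCL10 in U266 was below detection throughout, so its differences between lines rest on the IM-9 arrays.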

How the results depend on the processing

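With arrays scaled to equal medians, member calls fell to 0 in U266 buffer at 3 and 24 h and in IM-9 buffer at 9 h, and to 1 in U266 buffer at 1 h, in the 24 h buffer difference between lines, and in treated IM-9 against buffer at 24 h. Calls over all probes fell as well. In U266 buffer they went from 704 higher and 622 lower to 10 and 45 at 1 h. At 24 h they went from 650 and 816 to 4 and 2. In treated IM-9 at 24 h they went from 729 and 847 to 67 and 712. The loss is thus not particular to the members there, and for the other contrasts just named all probes were not counted on that scale. On that scale CXCL10 (−0.0075) and CCR10 (−0.0034) at 24 h of ch128.1Av in IM-9, the CXCL10 difference between lines in that effect (−0.012), CCL22 at 24 h of buffer (0.091) and CCR7 (0.13) changed sign; the cause was not tested. IM-9 buffer at 9 h also had 0 calls without background correction, in the authors' table, with trend and robust spread, and with lines fitted apart. With array brightness as a covariate there were 2 calls in IM-9 buffer at 24 h, 0 in U266 buffer at 24 h, 0 for ch128.1Av at 1, 3 and 9 h and 0 from 1 to 3 h of ch128.1Av in U266. With the bright array set as a block the last 2 were 0 and 1. U266 buffer at 3 h, and the 1 to 3 h change with ch128.1Av in U266, had 1 call each without the detection filter, with 1 probe per gene and with lines fitted apart. U266 buffer at 1 h had 1 with 1 probe per gene, which leaves out the NM_003467 probe of CXCR4.

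Leaving out 1 array at a time, member calls ranged in IM-9 buffer at 1 h from 3 to 3, at 3 h from 1 to 1, at 9 h from 0 to 2 and at 24 h from 1 to 4, and in U266 buffer at 1 h from 2 to 2, at 3 h from 1 to 1, at 9 h from 0 to 0 and at 24 h from 0 to 2. The 24 h line difference gave 2 to 4 calls, lines at 0 h, where the members' levels chose them and nothing is read from the count, 9 to 10 beside 66.6% of all probes, ch128.1Av in IM-9 at 24 h 4 to 7, in U266 at 24 h 0 to 1, ch128.1Av at 1, 3 and 9 h together 1 to 3, and the 1 to 3 h change with ch128.1Av 4 to 4 in IM-9 and 0 to 2 in U266. Other family genes gave 5 to 7 calls in IM-9 buffer at 24 h and 0 to 0 in U266. Calls over all probes were not counted without single arrays or in settings other than equal medians, so nothing particular to the members is read from these counts. A group left with 1 array was assumed to vary like the others. The labels give replicates only as numbers. With these as a block no count of member calls moved by over 1.5 times. Among the members named as called, only the CCR10 line difference in the ch128.1Av effect at 24 h (0.59) was lost. Under the block the CCL3 rise at 1 h in IM-9 was 1.04 (limma adjusted p = 1.12e-06). Of 863 recomputed values of called member probes, 735 were counted as unchanged and 4 changed sign. In tested contrasts, unchanged means that call and direction were kept, and 81 values lost the call there. In contrasts given without a test it means a value within its spread, whether or not the call was kept. Another 43 of the latter moved by more than their spread.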
